A study of Rattus norvegicus with 40 samples.

Results

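The enzymes that turn isopentenyl diphosphate into sterols were followed in rat liver after a single dose of the dioxin TCDD (2,3,7,8-tetrachlorodibenzo-para-dioxin). The members were taken by gene symbol: every probe set of the array whose annotation names Hmgcs1, Idi1, Fdps, Fdft1, Sqle, Lss, Cyp51 or Hsd17b7. Of these 8 genes, 7 were measured, by 12 of the 15866 probe sets that are not controls, and the 7 are among 10411 genes with a symbol of their own. No probe set carried the symbol Hmgcs1, the synthase that makes HMG-CoA upstream of mevalonate, which was not analysed here, and none of the members is a gene of cholesterol uptake, which is described from a separate list below. Idi1, Fdft1, Lss, Cyp51 and Hsd17b7 had 2 probe sets each, and the one with the higher mean over the arrays of 19 h stands for the gene.

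The study compared rats that differ in their susceptibility to TCDD. The sensitive collective holds the Long-Evans strain (L-E) and the line LnC (Line C), both with a wild-type aryl hydrocarbon receptor (AHR), the ligand-dependent transcription factor that binds TCDD. Resistant are the Han/Wistar strain (H/W) and the line LnA (Line A), which carry an AHR from which part of the transactivation domain is deleted. Both lines descend from matings between H/W and L-E, so that they share ancestry. All rats were males of 10 to 12 weeks, given 100 ug/kg TCDD or the corn oil vehicle by gavage: 8 groups at 19 h (TCDD and corn oil in each strain/line, 32 arrays) and 2 at 3 h (TCDD in L-E and H/W, 8 arrays, with no corn oil group at that time), each of 4 rats with 1 array per rat. Per the methods, the 4 rats of a treatment group were housed together, so cage and group cannot be told apart. The labels give the same morning hours of harvest for the rats of 3 h and of 19 h.

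Hepatocytes make cholesterol from acetyl-CoA by way of mevalonate. Phosphorylated and decarboxylated mevalonate gives isopentenyl diphosphate, from which farnesyl chains are assembled. Farnesyl chains are fused in pairs to squalene, which is oxidised and cyclised to lanosterol, and lanosterol loses its methyl groups and has its double bonds moved to become cholesterol. Transcription of these genes is driven by SREBP-2, a membrane-bound factor that is released when the sterol content of the endoplasmic reticulum is low, and the pathway is known for running together, and for its daily rhythm, in rodent liver. Idi1 isomerises isopentenyl diphosphate, Fdps makes farnesyl diphosphate and Fdft1 (squalene synthase) joins 2 farnesyl chains. Sqle (squalene epoxidase) and Lss (lanosterol synthase) carry out the oxidation and the cyclisation, Cyp51 removes a methyl group of lanosterol, and Hsd17b7 reduces the keto group left by the removal of the others.

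The deposited values are log2 signals from GCRMA, on which a difference of 1 is a 2-fold difference. The medians of the 40 arrays lay between 3.52 and 3.76, and an array correlated with the others of its group at a mean r of 0.992 to 0.996. Cyp1a1, the classical target of the AHR, was at least 13.91 in all TCDD arrays and at most 8.60 in all corn oil arrays. Of the hepatocyte markers, 7 of 8 were measured and all had high signals (albumin at least 16.4 in the arrays of 19 h), whereas the other lists were mixed. The lymphocyte markers Cd3d and Cd79b, the endothelial markers Pecam1 and Vwf and 3 of 4 measured bile duct markers (Krt19, Krt7 and Spp1) were at most 3.58 in the same arrays, near or below the array medians. Above them were, among others, the bile duct marker Epcam (4.53 to 5.80), the macrophage markers Clec4f (9.01 to 10.8), Cd14 (7.36 to 10.4) and Csf1r (6.07 to 7.74), and the collagen gene Col3a1 of stellate cells (8.58 to 10.3). In whole liver, fewer cells of a type and less RNA per cell cannot be told apart.

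Promoters of 6 members are in the RefSeq table for build GRCr8, those of Hmgcs1, Idi1, Fdps, Lss, Cyp51 and Hsd17b7. Each is a window of 300 bases, 250 before the start site and 50 after it. Shown here are those of Hsd17b7 and Idi1, the members with the largest responses to TCDD in L-E rats, and that of Lss, whose level set H/W rats apart. Capitals mark matches to CCAAT (bound by NF-Y), GGGCGG (Sp1), TCACNCCAC (a sterol regulatory element) and GCGTG (the core of the AHR response element) on either strand, so that they may read as the reverse complement. The windows lie at chr13:84722705-84723004 for Hsd17b7, chr17:66547475-66547774 for Idi1 and chr20:12118181-12118480 for Lss, all 3 on the minus strand.
Hsd17b7: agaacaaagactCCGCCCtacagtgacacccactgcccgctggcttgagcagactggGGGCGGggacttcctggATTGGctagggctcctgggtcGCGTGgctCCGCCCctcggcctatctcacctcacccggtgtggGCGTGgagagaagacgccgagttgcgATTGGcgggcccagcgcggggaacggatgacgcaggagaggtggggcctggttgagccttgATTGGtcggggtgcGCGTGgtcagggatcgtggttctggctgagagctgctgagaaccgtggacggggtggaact
Idi1: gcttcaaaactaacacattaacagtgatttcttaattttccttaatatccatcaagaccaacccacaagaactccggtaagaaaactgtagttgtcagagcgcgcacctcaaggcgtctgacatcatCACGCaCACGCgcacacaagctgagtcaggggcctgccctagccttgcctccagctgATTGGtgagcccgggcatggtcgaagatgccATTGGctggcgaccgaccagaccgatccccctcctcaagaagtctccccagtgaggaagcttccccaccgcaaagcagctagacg
Lss: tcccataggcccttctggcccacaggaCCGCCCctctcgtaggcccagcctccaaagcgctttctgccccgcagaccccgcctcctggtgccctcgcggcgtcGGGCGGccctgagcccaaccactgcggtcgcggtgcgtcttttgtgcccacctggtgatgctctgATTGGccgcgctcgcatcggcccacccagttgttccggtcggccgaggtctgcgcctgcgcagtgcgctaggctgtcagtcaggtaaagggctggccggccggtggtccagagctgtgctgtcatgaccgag
The Hsd17b7 window held CCAAT 3 times (nearest at -25 to -21 from the start site), GGGCGG 3 times and GCGTG 3 times (at -155 to -151, -112 to -108 and -11 to -7). CCAAT and GCGTG each matched at 2 places in the Idi1 window and GGGCGG at none. For Lss there was 1 match to CCAAT, 2 to GGGCGG and 0 to GCGTG. Over the 6 windows, CCAAT was found in 5 (37.5% of 33469 rat promoters of the same length), GGGCGG in 5 (33.1%), GCGTG in 3 (29.7%) and TCACNCCAC in 0 (1.12%). The matches do not overlap one another, and they are descriptions of letters, not of binding.

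The first question was what TCDD did to these transcripts at 19 h in each strain/line. In L-E rats 6 of the 7 members had a lower mean after TCDD, by up to 1.73 on the log2 scale, and Hsd17b7 was the one that passed the threshold, an adjusted p under 0.01 in limma. The median log2 difference of the 7 members was -0.686 for L-E, -0.49 for LnC, -0.322 for LnA and -0.188 for H/W, beside medians of 0.0126, 0.00329, -0.0148 and -0.0405 over all genes. Called were 1 of 7 members in L-E, where 2.06% of all genes were called, 0 for LnC (1.13%), 0 for LnA (1.09%) and 0 for H/W (0.423%).

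**Figure D1:**
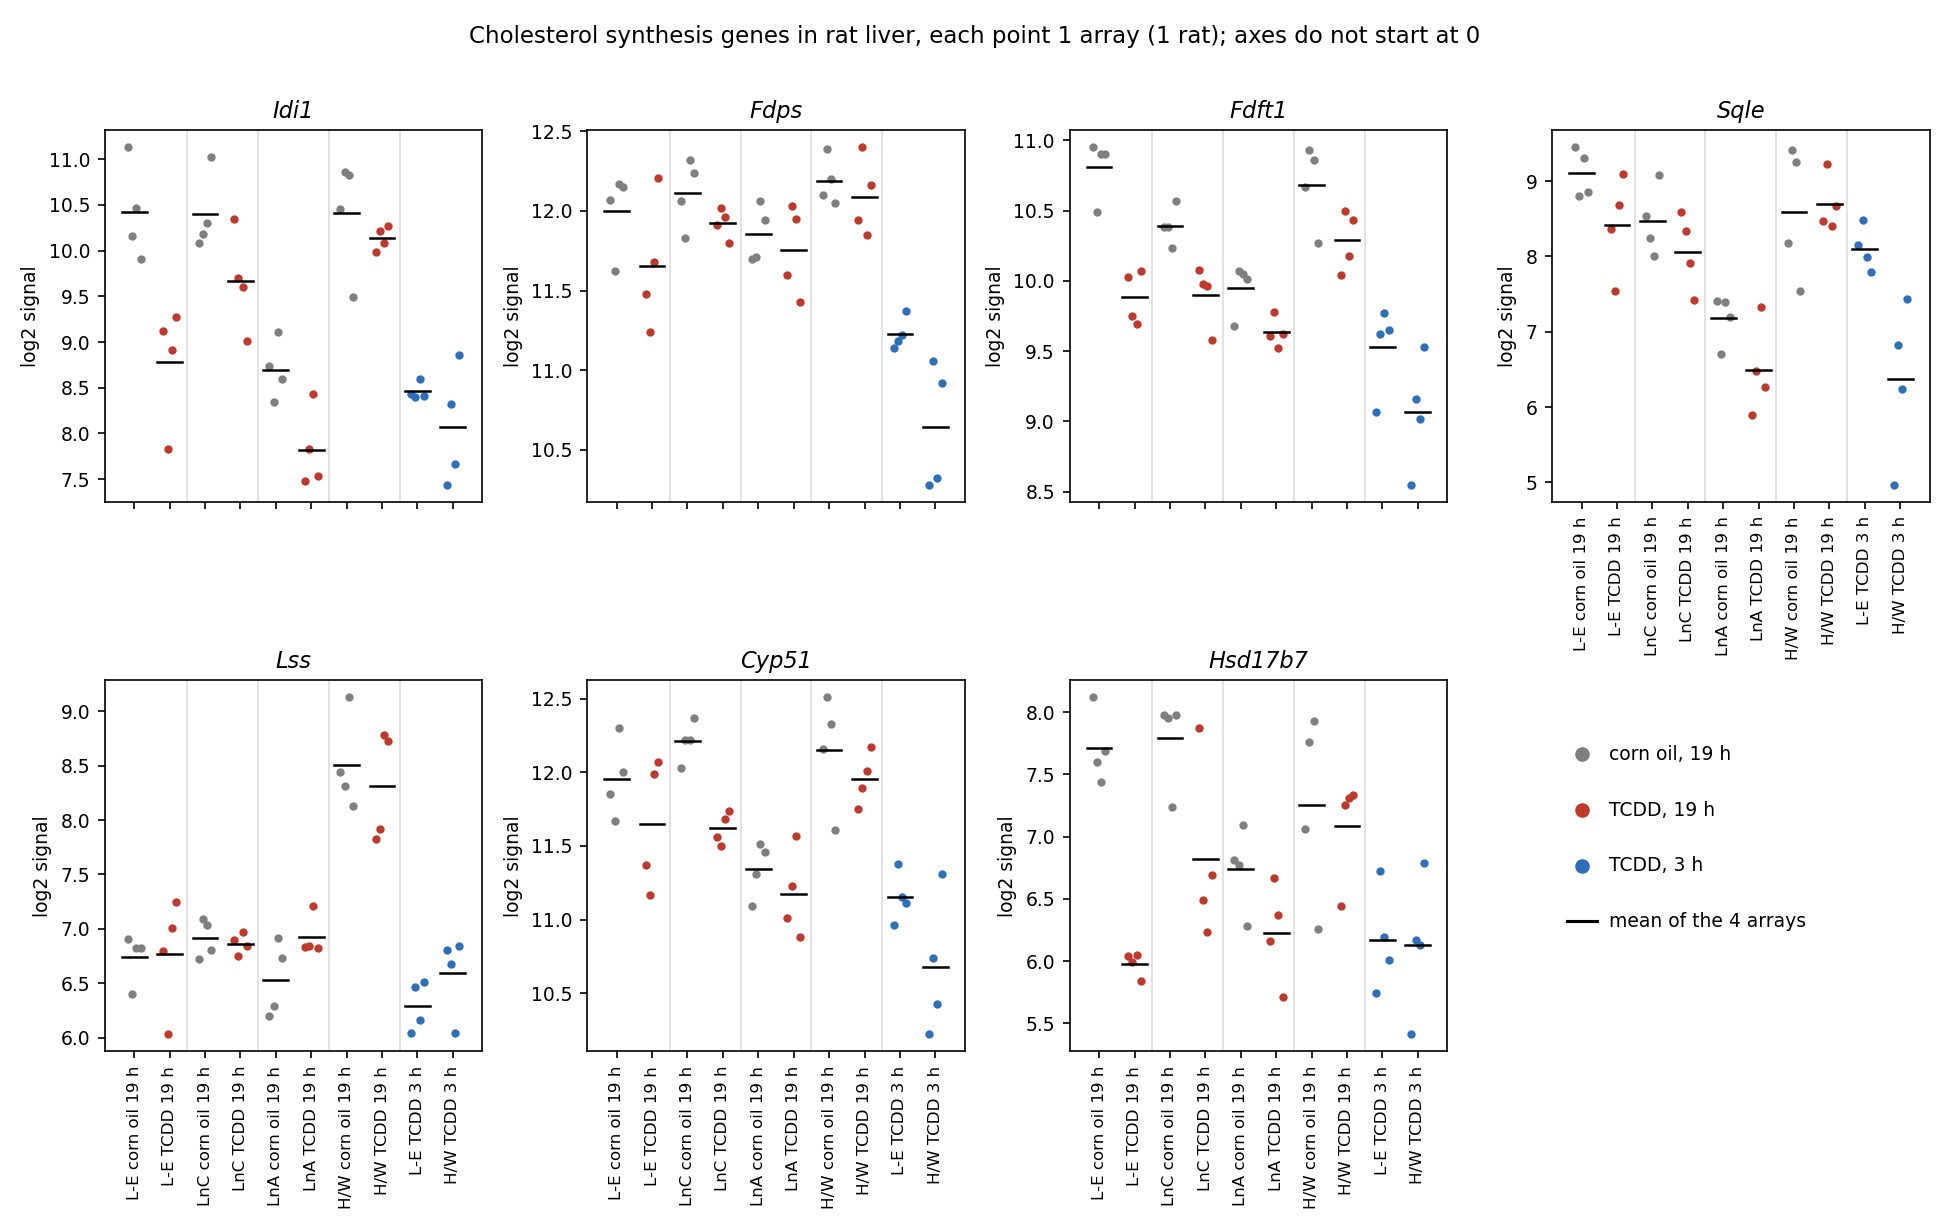
The log2 signal of the 7 measured members in each of the 40 arrays, by strain/line, treatment and time; points are arrays (1 rat each) and bars the means of 4. In L-E rats the TCDD arrays of Hsd17b7 (5.84 to 6.05) all lie below the corn oil arrays (7.44 to 8.12), and the H/W arrays of Lss at 19 h (7.83 to 9.13) all lie above those of the other strains/lines.

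Idi1 stood at 11.13, 10.16, 10.47 and 9.91 in the corn oil rats of L-E and at 9.12, 7.83, 8.91 and 9.27 after TCDD, so the groups did not overlap and every treated rat lay below every control. The log2 difference was -1.64 (SE 0.39, 3.11-fold) with an adjusted p of 0.0537 from limma, which is not past the threshold. Its second probe set, tested among all probe sets, gave -1.98 and passed (adjusted p = 0.00522), and the probe sets correlated at r = 0.94 over the 40 arrays. In LnC rats the signals were 10.08, 10.18, 10.30 and 11.02 with corn oil and 10.35, 9.70, 9.60 and 9.01 with TCDD, a difference of -0.73 (adjusted p = 0.344). LnA rats began from a lower level, 8.74, 8.34, 9.11 and 8.60, and had 7.48, 7.83, 8.43 and 7.53 after TCDD, a difference of -0.88 (adjusted p = 0.122). The highest treated rat of LnA lay within the range of the controls. In H/W rats the treated arrays spanned 9.99 to 10.27, inside the corn oil range of 9.49 to 10.86, with a difference of -0.27 (adjusted p = 0.64). The second probe set gave -1.03 in LnC (adjusted p = 0.159 over all probe sets), -0.84 in LnA (0.074) and -0.35 in H/W (0.622). By that probe set the LnA groups did not overlap.

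Fdps, which makes the farnesyl chains used for sterols, ubiquinone and protein prenylation alike, had small differences. Its log2 differences ran from -0.35 in L-E and -0.20 in LnC to -0.10 in both resistant groups, with overlapping groups in each strain/line and adjusted p-values of 0.497 to 0.898. The widest 95% interval of the 4, that of L-E, ran from -0.87 to 0.18.

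Fdft1, the first enzyme committed to sterols, was at 10.95, 10.49, 10.90 and 10.90 in corn oil L-E rats and at 10.03, 9.75, 9.69 and 10.07 after TCDD. The groups were apart, and the log2 difference of -0.92 (SE 0.13, 1.9-fold) had an adjusted p of 0.0102, just outside the threshold. Without corn oil replicate 2, the low array of that group, it passed (-1.03, adjusted p = 0.00798). In LnC rats the corn oil arrays (10.38, 10.38, 10.23 and 10.57) were again all above the TCDD arrays (10.08, 9.98, 9.96 and 9.58), with a difference of -0.49 (adjusted p = 0.0799). LnA and H/W rats had -0.32 (adjusted p = 0.161) and -0.39 (adjusted p = 0.399) with overlapping groups. The second probe set of Fdft1 gave -1.18 in L-E (adjusted p = 0.0172), -1.01 in LnC (0.0359), -0.31 for LnA (0.341) and -0.56 for H/W (0.154), all in limma over all probe sets and all below 0. The paper, which used RMA and a remapped probe annotation, lists Fdft1 as lowered past the same threshold in both sensitive groups. It was outside that threshold there in both resistant groups.

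Sqle, often counted with HMG-CoA reductase among the rate-limiting steps, varied more between rats. In L-E it was 9.45, 8.80, 9.31 and 8.86 with corn oil and 8.36, 7.54, 8.68 and 9.10 with TCDD, a difference of -0.69 (SE 0.34, adjusted p = 0.349). LnA gave a like value from a lower level, 7.41, 6.70, 7.40 and 7.20 against 5.90, 6.48, 7.33 and 6.27 (difference -0.68, adjusted p = 0.395). In both, a treated rat lay inside the control range. The differences in LnC and H/W were -0.40 (adjusted p = 0.758) and 0.10 (adjusted p = 0.883).

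Lss, which closes the ring system of lanosterol, was the member with the smallest difference in L-E and LnC, 0.03 and -0.05 on the log2 scale. It had -0.19 in H/W and 0.39 in LnA (SE 0.18, adjusted p = 0.4). Cyp51 had -0.30 in L-E (adjusted p = 0.603), -0.17 in LnA and -0.20 in H/W. In LnC rats the Cyp51 signals were 12.03, 12.22, 12.22 and 12.37 with corn oil and 11.56, 11.50, 11.68 and 11.74 with TCDD. Those groups did not overlap, and the difference of -0.59 (SE 0.08, 1.51-fold) had an adjusted p of 0.0119, again just outside the threshold.

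Hsd17b7, which works late in the pathway and also reduces estrone to estradiol, had the largest difference in L-E and LnC. In L-E rats it was 8.12, 7.60, 7.44 and 7.69 with corn oil and 6.04, 5.99, 6.05 and 5.84 with TCDD. All 4 treated rats were at least a full log2 unit below every control, and Hsd17b7 fell by 1.73 on the log2 scale (SE 0.14, 3.33-fold, adjusted p = 0.00148 from limma, and 0.00151 when the scan day was blocked). With both of its probe sets averaged the difference was -0.97 (adjusted p = 0.00462). With the replicate number as a block Hsd17b7 was no longer called, though the numbers of L-E rats mark no known pairing. In LnC rats 7.98, 7.95, 7.24 and 7.98 stood against 7.87, 6.49, 6.23 and 6.69, a difference of -0.97 (SE 0.37, adjusted p = 0.266). One treated LnC rat, replicate 1, was at the control level and the other 3 were below all controls. LnA and H/W rats gave -0.51 (adjusted p = 0.405) and -0.17 (adjusted p = 0.782) with overlapping groups. The second probe set of Hsd17b7 did not share the L-E difference (-0.21, adjusted p = 0.636 over all probe sets). Its group means were only 3.29 to 4.41, near the array medians, and it correlated with the first at r = 0.665, less than the 0.914 to 0.949 of the pairs of the other 4 genes.

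**Figure D2:**
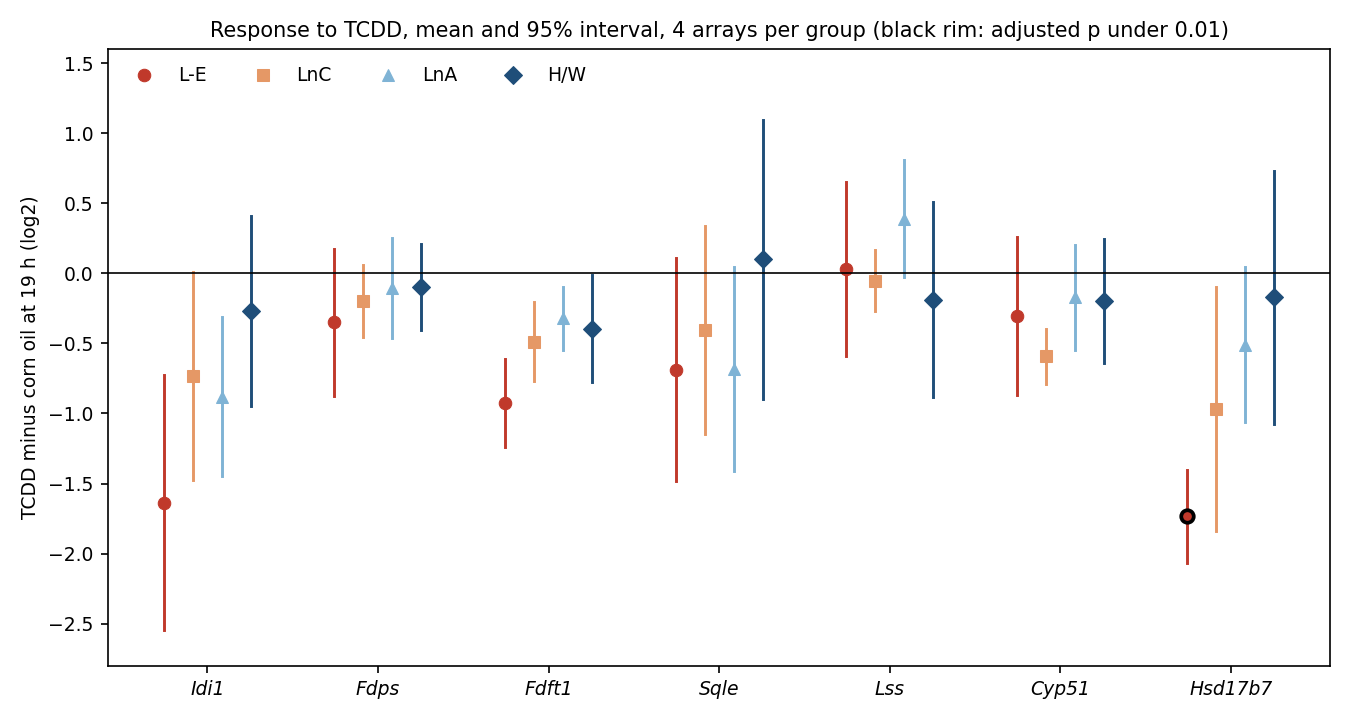
TCDD minus corn oil at 19 h (log2, vertical axis) for the 7 members in pathway order, with 95% intervals from limma over 4 arrays per group; a black rim marks an adjusted p under 0.01. Only Hsd17b7 in L-E (-1.73) carries the rim, and the intervals of Fdft1 lie below 0 in all 4 strains/lines.

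Groups without overlap were found for 3 of 7 members in L-E (13.3% of all genes), 2 for LnC (9.90%), 0 for LnA (8.90%) and 0 for H/W (8.08%), and in all of them the treated rats were the lower ones. These counts depend on the probe set. By the second probe sets the groups were also apart for Idi1 in LnA (-0.84) and Fdft1 in H/W (-0.56), and they overlapped for Hsd17b7 in L-E. The share of all probe sets without overlap was not computed. At an unadjusted p under 0.05, limma gave 3 of 7 members in LnC (14.9% of all genes), 2 in LnA (14.2%) and 1 in H/W (12.1%), all lower. In L-E livers the summed linear signal of the 7 measured of 9 macrophage and other immune cell markers was 1970 to 2880 with corn oil and 1840 to 2740 with TCDD, and that of the 7 hepatocyte markers 215000 to 230000 and 214000 to 242000. The 7 measured of 8 stellate and endothelial markers summed to 490 to 701 with corn oil and 673 to 1120 with TCDD in the same rats, and the part of these cells in the result was not tested. In LnC livers the immune cell markers summed to 2430 to 2780 with corn oil and 1440 to 2250 with TCDD, and the log2 signal of GAPDH at its 3′ end minus its 5′ end, a sign of RNA quality, was 0.272 to 0.487 with corn oil and 0.153 to 0.26 with TCDD. The groups did not overlap in either, and the part of both in the LnC values was not tested. H/W corn oil replicate 4 was the lowest of its group for all 7 members (Idi1 9.49, Sqle 7.54, Hsd17b7 6.26). Without it the H/W differences were -0.57 for Idi1, -0.25 for Sqle and -0.50 for Hsd17b7, with 0 members called.

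Whether the response differed between collectives was tested directly. The sensitive minus resistant difference of responses was below 0 for all 7 members, with a median of -0.264 (0.0352 over all genes), and none was called (0.0961% of all genes were). At an unadjusted p under 0.05 limma gave 2 of 7, Fdft1 and Hsd17b7, against 7.93% of all genes. Hsd17b7 had the largest value, -1.01 (95% interval -1.68 to -0.34, adjusted p = 0.361), followed by Idi1 at -0.61 (-1.30 to 0.08, adjusted p = 0.581). The order depends on the probe set. In limma over all probe sets, the second ones gave -0.91 for Idi1 (adjusted p = 0.529), -0.66 for Fdft1 (0.253), -0.36 for Cyp51 (0.54), -0.22 for Hsd17b7 (0.603) and 0.17 for Lss (0.544). Between the parental strains, the L-E minus H/W response was -1.56 for Hsd17b7 (-2.51 to -0.62, adjusted p = 0.287), -1.37 for Idi1 (adjusted p = 0.424) and -0.53 for Fdft1 (adjusted p = 0.462). These 3 of 7 members had an unadjusted p under 0.05 (9.70% of all genes), and 0 were called (0.0384%). Their second probe sets gave -0.41 for Hsd17b7 (adjusted p = 0.553), -1.64 for Idi1 (0.346) and -0.62 for Fdft1 (0.478). Between the bred lines the LnC minus LnA response was -0.46 for Hsd17b7 and 0.15 for Idi1. There 0 members were called (0.0768%), and 1, Cyp51 at -0.42, had an unadjusted p under 0.05 (4.76%). By the second probe sets the values were -0.03 for Hsd17b7, -0.19 for Idi1 and -0.70 for Fdft1 (adjusted p = 0.965). So no difference in response between strains/lines passed the threshold for any probe set of the members. The intervals of the brighter Hsd17b7 probe set reach well past a 2-fold difference.

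The rest of the pathway was taken from a list of 14 other synthesis genes, of which 11 were measured. HMG-CoA reductase is not among those measured. In the 4 strains/lines 0 of these 11 were called. Their median log2 difference was -0.204 for L-E, -0.191 for LnC, -0.0858 for LnA and -0.105 for H/W, with 9, 7, 7 and 8 of the 11 below 0. The lowest adjusted p-values were those of Msmo1, a C-4 methyl oxidase that acts before Hsd17b7, in L-E (-0.77, adjusted p = 0.0321), and of Ebp, a sterol isomerase, in LnC (-0.63, adjusted p = 0.0627). Acat2, the cytosolic thiolase that starts the pathway, had positive values throughout, from 0.28 in L-E to 1.16 in LnA (adjusted p = 0.063).

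**Figure D3:**
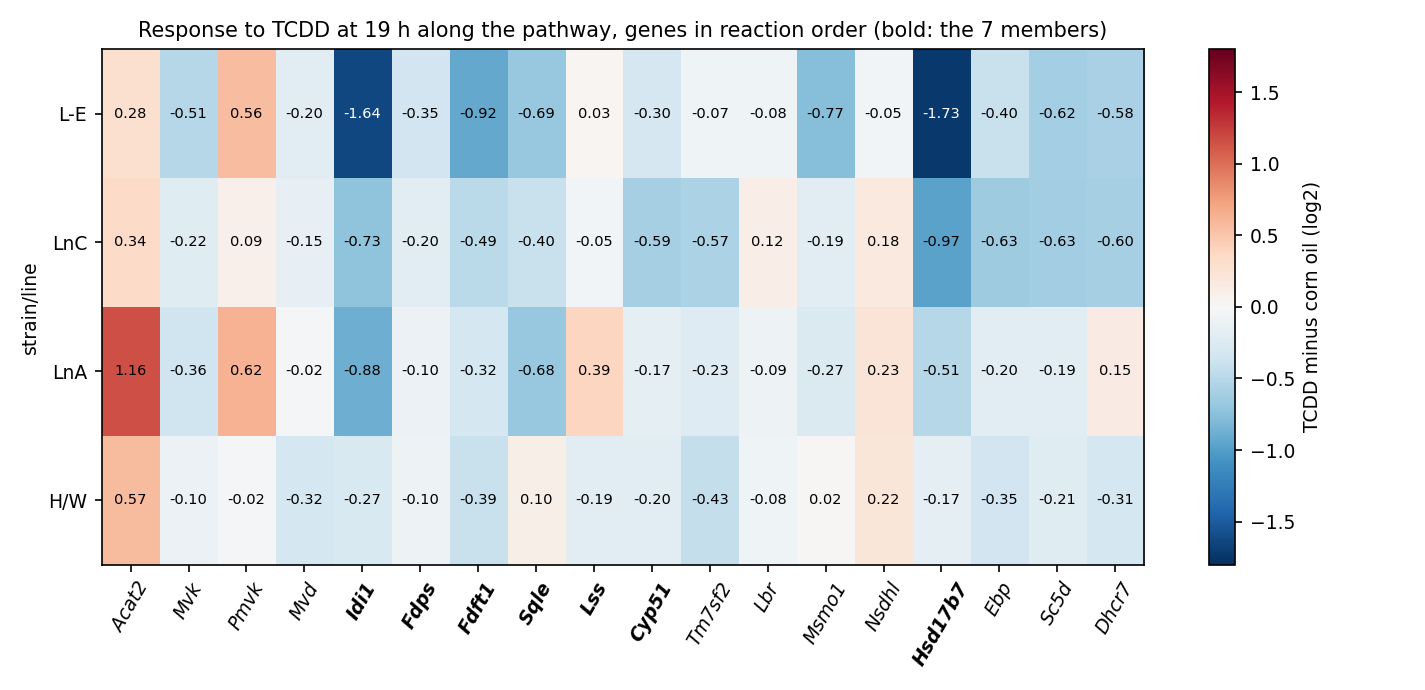
TCDD minus corn oil at 19 h (log2, colour and printed value) for the 7 members (bold) and 11 other measured synthesis genes in the order of their reactions, by strain/line. The largest decreases stand at Idi1 (-1.64) and Hsd17b7 (-1.73) in L-E, the largest increase at Acat2 in LnA (1.16), and Hsd17b7 in L-E is the one value past the threshold.

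Of 7 sterol-sensing genes, all measured, 0 were called in any strain/line. Srebf2, which encodes SREBP-2, had -0.78 in L-E (adjusted p = 0.146) and 0.16 in H/W, and Insig1, which holds SREBP in the endoplasmic reticulum, had 0.34 to 0.86. Among 11 genes of uptake and lysosomal release, 6 were measured: Scarb1, Lrp1, Lipa, Npc2, Stard3 and Mylip. The receptor of low-density lipoprotein is not among them, so its part of uptake is not described. Scarb1, the receptor that takes cholesteryl esters from high-density lipoprotein, was called. It rose by 0.96 in L-E (SE 0.09, adjusted p = 0.00209), by 0.80 in LnA (SE 0.06, adjusted p = 0.00141) and by 1.03 in H/W (SE 0.12, adjusted p = 0.00877) in limma, and its value in LnC was 0.62 (adjusted p = 0.129). Of 13 genes of esterification, export and turnover, 11 were measured. Nr1h3, which encodes the oxysterol receptor LXR alpha, rose in LnC (0.63, adjusted p = 0.0022) and H/W (0.97, adjusted p = 0.00188) and had 0.74 in L-E (adjusted p = 0.0122) and 0.69 in LnA (adjusted p = 0.0154). Cyp7a1, the rate-limiting enzyme of bile acid synthesis, gave -5.43 in LnC (adjusted p = 0.0338) and -4.59, -1.91 and -5.01 in L-E, LnA and H/W, with none called. Of 8 genes that use farnesyl and related chains for dolichol, ubiquinone and protein prenylation, 5 were measured and 0 were called in any strain/line, with differences of -0.12 to 0.48.

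The next question was how the strains/lines differed before TCDD, in 1 fit of the 16 corn oil arrays of 19 h. Lss was the clearest member. The H/W rats had 8.44, 8.31, 9.13 and 8.13, against 6.91, 6.40, 6.82 and 6.82 in L-E, 6.72, 7.09, 7.04 and 6.81 in LnC and 6.20, 6.29, 6.92 and 6.73 in LnA. Every H/W rat was above every rat of the other 3 groups, whose ranges overlapped each other. The log2 difference of Lss from H/W was -1.77 in L-E (3.4-fold, adjusted p = 0.0004), -1.59 in LnC (3.01-fold, adjusted p = 0.00123) and -1.97 in LnA (3.92-fold, adjusted p = 0.00019), all with SE 0.21. These calls held without any 1 of the 16 arrays, and the L-E value was -1.89 when the scan day was blocked (adjusted p = 0.00118). In fits of the 2 groups alone the adjusted p was 0.018, 0.0203 and 0.0151, past the threshold of 0.01 in none. The second Lss probe set had the same order, with means of 7.81 in H/W and 5.89 to 6.08 elsewhere. After TCDD the Lss level in H/W was 8.32 ± 0.51 (SD, n = 4) at 19 h and 6.59 ± 0.38 at 3 h, the latter within the range of the other strains/lines at 19 h.

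LnA rats had the lowest corn oil means of Idi1, Fdps, Fdft1, Sqle, Lss, Cyp51 and Hsd17b7, though its ranges overlapped those of all 3 other groups for Fdps, those of L-E and LnC for Lss and that of H/W for Hsd17b7. Against L-E, Idi1 was higher in L-E by 1.72 (3.3-fold, adjusted p = 0.00532), Fdft1 by 0.85 (1.81-fold, adjusted p = 0.00285) and Sqle by 1.93 (3.8-fold, adjusted p = 0.00532). Sqle stood at 7.41, 6.70, 7.40 and 7.20 in the LnA controls, below every control of L-E (8.80 to 9.45), LnC (8.00 to 9.08) and H/W (7.54 to 9.41). Idi1 did likewise, with 8.34 to 9.11 in LnA and at least 9.49 elsewhere. LnA minus H/W was called for Idi1 (-1.71, adjusted p = 0.00869) and Lss, while Fdft1 (-0.73, adjusted p = 0.0104), Cyp51 (-0.81, adjusted p = 0.0163) and Sqle (-1.42, adjusted p = 0.0398) were outside the threshold. LnC minus LnA had positive values for all 7 members, with 0 called. The largest were 1.70 for Idi1 (adjusted p = 0.0244), 1.29 for Sqle (adjusted p = 0.143) and 1.05 for Hsd17b7 (adjusted p = 0.181).

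By comparison, members called were 1 of 7 in L-E minus H/W (0.999% of all genes), 1 in LnC minus H/W (1.05%), 2 in LnA minus H/W (1.90%), 3 in L-E minus LnA (3.90%), 0 in LnC minus LnA (0.394%) and 0 in LnC minus L-E (2.41%). At an unadjusted p under 0.05 limma gave 5 of 7 in LnC minus LnA (9.45% of all genes) and 1 in LnC minus L-E (24.3%). The contrasts share their control groups and are not independent. The arrays of both bred lines share 1 scan day, which no L-E or H/W array has, so in contrasts across these pairs scan day and group cannot be told apart. Of the L-E minus LnA calls, that of Fdft1 ended without L-E corn oil replicate 1 (adjusted p = 0.0103), that of Sqle without L-E replicate 1, 2 or 3 or LnA replicate 2, 3 or 4, and that of Idi1 without L-E replicate 1, 2 or 3 or LnA replicate 1, 2 or 4 (up to 0.019 and 0.0183). The call of Idi1 in LnA minus H/W remained without 4 of the 16 arrays (L-E replicates 1 and 4, LnC replicate 4 and H/W replicate 4) and ended without each of the others, with adjusted p-values up to 0.0298. Without H/W corn oil replicate 4, the low array, LnA minus H/W had 5 members called. LnC minus LnA, which does not hold that array but shares the estimate of the spread, then had 2, Idi1 (adjusted p = 0.00893) and Cyp51 (0.00815). The summed signal of macrophage and other immune cell markers was 1150 to 1200 in LnA controls, below that of L-E (1970 to 2880) and LnC (2430 to 2780). In H/W controls it was 1090 to 2040, a range that holds the LnA values. The part of these cells in the results was not tested.

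Of the other synthesis genes, Sc5d, a sterol desaturase near the end of the pathway, was lower in LnA controls, at -0.68 in LnA minus H/W (adjusted p = 0.00239) and at 0.61 in L-E minus LnA (adjusted p = 0.00283). In LnC minus LnA the 11 genes had a median of 0.616 (-0.0107 over all genes) with 0 called. Abcg5 and Abcg8, which together form the transporter that exports sterols into bile, were higher in LnC than in LnA by 4.50 (adjusted p = 0.00724) and 2.59 (adjusted p = 0.00194), and Abcg5 was higher in L-E than in LnA by 3.74 (adjusted p = 0.0056). Lrp1, an endocytic receptor of lipoprotein remnants, was lower in LnC than in L-E (-0.60, adjusted p = 0.00756) and higher in L-E than in LnA (0.67, adjusted p = 0.00313).

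At 3 h after TCDD only L-E and H/W can be set against each other. The median L-E minus H/W difference of the 7 members was 0.467 (-0.0429 over all genes), 0 members were called (2.18% of all genes) and 2 had an unadjusted p under 0.05 in limma (35.2%), both higher in L-E. Sqle was 8.15, 8.48, 7.99 and 7.79 in L-E and 4.97, 6.83, 6.24 and 7.44 in H/W. The groups were apart but the H/W rats spread over more than 2 log2 units, and the difference of 1.73 (SE 0.50) had an adjusted p of 0.0848. Fdps was likewise apart, with 11.14 to 11.37 in L-E and 10.28 to 11.06 in H/W (difference 0.59, adjusted p = 0.104). Dhcr7, which reduces the last double bond in one route to cholesterol, was called among the 11 other synthesis genes (0.96, adjusted p = 0.00477), higher in L-E. The summed linear signal of the immune cell markers was 2690 to 3920 in L-E and 1520 to 1790 in H/W, with Csf1r called (0.96, adjusted p = 0.00472). Of the 7 measured, 5 were higher in L-E, and 2, the dim lymphocyte markers Cd3d (-0.05) and Cd79b (-0.06), were lower. The stellate and endothelial markers summed to 641 to 1250 in L-E and 513 to 592 in H/W. Of these, Col3a1, the brightest at 19 h, was higher in L-E by 0.99. But 4 of the 7 were below 0, and their median was -0.0463, beside -0.0429 over all genes. The part of these cells in the differences was not tested.

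TCDD rats of 19 h were then compared with those of 3 h. In H/W rats 3 members rose from 3 h to 19 h. Idi1 with 2.07 (SE 0.30, 4.19-fold, adjusted p = 0.00525), Fdps with 1.44 (SE 0.22, 2.72-fold, adjusted p = 0.0059) and Lss with 1.72 (SE 0.29, 3.3-fold, adjusted p = 0.00932) were called in limma, 3 of 7 against 5.15% of all genes. The 4 others also had positive values, 2.33 for Sqle (adjusted p = 0.0268), 1.28 for Cyp51 (adjusted p = 0.0126), 1.23 for Fdft1 (adjusted p = 0.0102) and 0.96 for Hsd17b7 (adjusted p = 0.115). Idi1 went from 7.44, 8.32, 7.67 and 8.86 at 3 h to 9.99, 10.21, 10.08 and 10.27 at 19 h, and Fdps from 10.28, 11.06, 10.32 and 10.92 to 11.94, 12.40, 11.85 and 12.16. For all members but Hsd17b7 every H/W rat of 19 h lay above every H/W rat of 3 h. The share of all genes without overlap was not computed for this contrast. At an unadjusted p under 0.05 limma gave all 7 members, against 23.3% of all genes. Leaving out 1 array ended the call of Idi1 in all cases but without 3 h replicate 4, that of Fdps in all but without 3 h replicate 2, and that of Lss in all 8, with adjusted p-values up to 0.0189, 0.0214 and 0.0267. With no corn oil rats at 3 h, these are differences between times in treated rats, not responses to TCDD, and the scan day cannot be told apart from the time, because the scan day of the 3 h arrays holds no others.

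L-E rats had smaller differences between the times: 0.32 for Idi1, 0.42 for Fdps, 0.36 for Fdft1, 0.31 for Sqle, 0.47 for Lss, 0.50 for Cyp51 and -0.19 for Hsd17b7. None was called (4.01% of all genes were) and 0 of 7 had an unadjusted p under 0.05 (24.4%). The second probe sets, tested among all probe sets in limma, were higher at 19 h. They gave 0.68 for Hsd17b7 (adjusted p = 0.0103), 0.61 for Cyp51 (0.0785), 0.57 for Idi1 (0.101), 0.40 for Lss (0.136) and 0.03 for Fdft1 (0.919). All of these but Fdft1 had an unadjusted p under 0.05, so the L-E values depend on the probe set. The H/W minus L-E difference of these differences, a comparison added after seeing the data, was positive for all 7 members, from 0.78 for Cyp51 to 2.01 for Sqle (SE 0.63), with a median of 1.14 (-0.0468 over all genes). All 7 had an unadjusted p under 0.05 in limma (17.5% of all genes) and 0 were called (0.0576%). The lowest adjusted p was that of Idi1, 0.147 at a difference of 1.75 (SE 0.44). By the second probe sets the value for Hsd17b7 was 0.44, with an unadjusted p of 0.0746 in limma. Those of Cyp51 (0.76), Fdft1 (0.95), Lss (1.14) and Idi1 (1.67) had an unadjusted p under 0.05, and none was called.

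**Figure D4:**
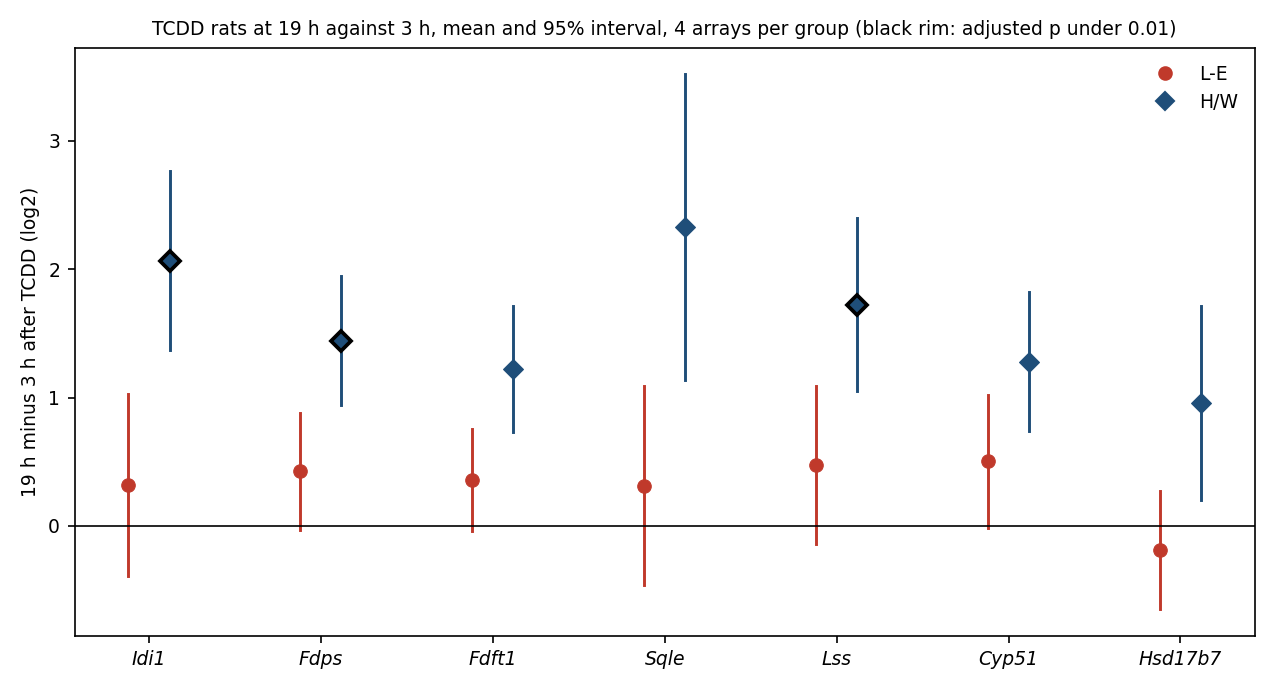
Log2 difference between TCDD rats of 19 h and of 3 h (vertical axis) for the 7 members in L-E and H/W, with 95% intervals from limma over 4 arrays per group; black rims mark an adjusted p under 0.01. H/W values run from 0.96 to 2.33 and L-E values from -0.19 to 0.50, and the difference between the strains was not past the threshold for any member.

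Of the other synthesis genes in H/W, 4 of 11 rose from 3 h to 19 h, namely Mvk by 1.48 (adjusted p = 0.00752), Msmo1 by 2.48 (adjusted p = 0.00597), Nsdhl by 0.99 (adjusted p = 0.00635) and Sc5d by 1.01 (adjusted p = 0.00368), and all 11 had positive values. Their median was 0.777, beside 1.44 for the members and -0.0284 for all genes. Srebf1 and Srebf2, of the sterol-sensing list, rose by 1.57 (adjusted p = 0.0045) and 1.56 (adjusted p = 0.00168) in the same rats. In L-E, 0 of these 11 and 0 of the 7 sterol-sensing genes were called. Scarb1 rose in both strains, by 0.79 in L-E (adjusted p = 0.00866) and by 0.64 in H/W (adjusted p = 0.00516). The stellate and endothelial markers of H/W had a summed linear signal of 513 to 592 at the earlier time and of 680 to 858 at the later, and the macrophage and other immune cell markers of 1520 to 1790 and of 988 to 1620. Of the 7 stellate and endothelial markers, Col3a1, the brightest at 19 h, was at 0.58 and 3 were below 0. Their median was 0.0171, beside -0.0284 over all genes. The part of these cells in the result was not tested.

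Across the 32 arrays of 19 h the members varied together. Over the 21 pairs, the correlation of the deviations from the group means, which leaves out strain/line and treatment, was 0.165 to 0.872 with a median of 0.549, where the median over all pairs of genes was 0.0265. Idi1 and Sqle were the closest pair (r = 0.872) and Fdps and Hsd17b7 the least close (r = 0.165). With group differences kept in, r was 0.231 to 0.871 with a median of 0.629. Rats of a group share a cage and arrays share scan days, so these are descriptions. Outside the members, the genes most like their mean over the 32 arrays were Sc5d (r = 0.825), Msmo1 (0.793), Mvk (0.756), Ebp (0.752) and Hacd2 (0.746), and by deviations from the group means Msmo1 (0.851), Ebp (0.742), Srsf9 (0.663), Ctdnep1 (0.661) and Ctdsp1 (0.648). Sc5d, Msmo1, Mvk and Ebp are enzymes of the same pathway.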

How the data were processed

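Total RNA from the liver of each rat was hybridised to 1 Affymetrix RAE230A array. The deposited values are log2 signals that the authors made from the scanned probe intensities with GCRMA (gcrma 2.4.1, affy 1.10.0, R 2.3.1 per the labels' processing notes); the methods also describe RMA with a remapped probe annotation, which was not repeated. GCRMA puts all arrays on a common distribution and subtracts a sequence-dependent background, so low signals are compressed. Signals of different genes are not on one scale, so the levels and sums of the marker lists are rough descriptions. Arrays give no read depth: 4 per group limit the precision.

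Each gene was represented by its brightest probe set at 19 h by mean signal (10411 genes from 12783 probe sets with 1 symbol; 312 with several and 2771 with none were left out, and 57 control probe sets). Differences were tested with limma 3.58.1 in R 4.3.3 and adjusted over all 10411 genes (Benjamini-Hochberg), and 0.01, the limit in the study's methods, was the threshold for a call. Each response was fitted on its 8 arrays, differences of responses on 16 or 32, the corn oil contrasts together on 16. Probe sets were also tested singly, adjusted over all 15866. Named were all members; from the other lists, genes called in a TCDD response and up to 3 a list with the lowest adjusted p; the 5 genes most like the members' mean by each measure; and Cyp1a1. Genes called in the corn oil and time comparisons, and Insig1, were added after the values were seen. The script was tested on simulated data. Alternatives were averaging a gene's probe sets, the lowest 40% of genes left out, quantile normalization, median centring, the replicate number or scan day as a block, wider or narrower fits, and each array left out. The members and lists were chosen with earlier results of these data known. Deviations of same-numbered TCDD and corn oil arrays correlated above the limit of 0.1 in every pair only in LnA (r = 0.119 to 0.164 over 2245 genes). They were also positive in every pair of L-E (0.0659 to 0.287) and H/W (0.0111 to 0.149), and ran from -0.264 to 0.0913 in LnC. Promoters were searched with Python 3.11.15.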

Additional observations from a re-analysis of the deposited data

Results flagged for a closer look

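In 6 of the 70 groups of 4 arrays, 1 array stood apart from the other 3 by Dixon's test (chance flags about 1 in 20 groups). Hsd17b7 was at 6.44 in H/W TCDD replicate 1 of 19 h, with the others at 7.25 to 7.33, and at 7.24 in LnC corn oil replicate 3, with the others at 7.95 to 7.98. Fdft1 was at 10.49 in L-E corn oil replicate 2 (others 10.90 to 10.95) and at 9.68 in LnA corn oil replicate 1 (others 10.01 to 10.07). Idi1 was at 8.60 in L-E TCDD replicate 3 of 3 h, where the others spanned only 8.40 to 8.43, and Lss at 7.21 in LnA TCDD replicate 3, where the others spanned 6.82 to 6.84.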

How the results depend on the processing

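No called value changed its direction: under the alternatives other than leaving out an array, called values stayed called in 57 cases and were no longer called in 19, and without 1 array 97 stayed and 47 did not. Hsd17b7 in L-E was called without any of its 8 arrays. Blocking on the replicate number (replicate block) gave it an adjusted p of 0.0169, where the count of members called in the L-E response was 0; the numbers of L-E rats mark no known pairing. The block also gave 1 in LnA minus H/W and 19 h minus 3 h in H/W and 0 in L-E minus LnA, and it left the other counts, LnA response included, as they were. In the L-E response the count was 1, and 3 with probe sets averaged per gene or in 1 fit over the 8 groups and 2 with the low genes left out. In the LnC response it was 0, and 1 with the low genes left out or median centring. For corn oil, the 2 groups alone gave 0 for L-E, LnC and LnA minus H/W and 1 for L-E minus LnA. LnA minus H/W had 2, and 1 with the mean of probe sets, quantile normalization or median centring and 4 with the low genes left out, which also gave 5 in 19 h minus 3 h in H/W, against 3 as reported. The scan day as a block gave 1 in LnC minus LnA. Apart from fits with fewer genes or arrays, the cause was not tested.

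Leaving out 1 array gave 1 to 2 members called in the L-E response, 0 to 2 in LnC minus LnA, 1 to 5 in LnA minus H/W, 0 to 3 in L-E minus LnA and 0 to 3 in 19 h minus 3 h in H/W. The arrays concerned stand beside those results.

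Some uncalled log2 differences near 0 changed sign. With the mean of probe sets they were 0.01 for Lss in LnC and Hsd17b7 in H/W, 0.03 for Lss in sensitive minus resistant, -0.02 for Idi1 in the LnC minus LnA response and for Cyp51 in corn oil LnC minus H/W, and 0.25 for Hsd17b7 in 19 h minus 3 h in L-E. In corn oil L-E minus H/W, Idi1 was -0.00 with the mean of probe sets, -0.01 with quantile normalization and -0.27 with the scan day as a block, and Fdft1 -0.01 with that block. Hsd17b7 at 3 h was -0.04 with quantile normalization. Without 1 array, the responses ranged from -0.13 to 0.28 for Lss in L-E, from -0.12 to 0.01 for Lss in LnC, from -0.20 to 0.00 for Fdps in LnA, and in H/W from -0.50 to 0.06 for Hsd17b7, from -0.25 to 0.37 for Sqle and from -0.34 to 0.02 for Lss. Differences of responses ranged from -0.22 to 0.01 for Lss in sensitive minus resistant, from -0.25 to 0.07 for Cyp51 in L-E minus H/W, and in LnC minus LnA from -0.20 to 0.00 for Fdps and from -0.08 to 0.37 for Idi1. In corn oil, L-E minus H/W ranged from -0.29 to 0.18 for Idi1 and from -0.01 to 0.23 for Fdft1, and LnC minus L-E from -0.23 to 0.21 for Idi1, from -0.01 to 0.21 for Fdps and from -0.01 to 0.26 for Hsd17b7. LnC minus H/W ranged from -0.32 to 0.14 for Idi1, from -0.14 to 0.03 for Fdps, from -0.48 to 0.14 for Sqle and from -0.12 to 0.18 for Cyp51, and Hsd17b7 at 3 h from -0.20 to 0.26.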
